A study of Mus musculus with 10 samples.

Results

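Jam3, Esam, Mcam, Robo4 and Itga9 encode adhesion and guidance proteins on the cell surface, and their RNA was compared between mouse haematopoietic stem cells (HSCs) that carried the surface protein Jam2 and HSCs that lacked it. The genes were picked by name, and all 5 of the 5 had a row among the 2721 genes that could be placed on values. Arrays were run on RNA of wildtype male C57BL/6 SJL mice, 5 arrays of Jam2+ HSCs and 5 of Jam2- HSCs, numbered 1, 2, 4, 5 and 6 in both groups. Both groups were sorted as cells positive for CD150, c-kit and Sca-I and negative for CD48 and lineage markers, so the groups differ by design only in surface Jam2. The labels state that 5 mice were used, give no age and do not say whether an array stands for 1 mouse, so p-values measure the spread between these arrays and do not allow for shared mice.

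HSCs are held in bone marrow niches by adhesion molecules that bind neighbouring cells and matrix. Jam3 (JAM-C) and Jam2 (JAM-B) belong to the junctional adhesion molecules, immunoglobulin-domain proteins of endothelial and epithelial junctions, and Jam3 is a binding partner of Jam2. Esam is a related immunoglobulin-family protein shared by endothelium, platelets and HSCs, and is used to isolate HSCs. Robo4 is the endothelial member of the roundabout receptors and takes part in the lodging of HSCs in marrow. Mcam (CD146) is an adhesion protein of endothelium and perivascular stroma, and Itga9 is the alpha9 integrin subunit, which pairs with the beta1 subunit and binds tenascin-C, osteopontin and Vcam1.

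Every gene name here rests on an inferred displacement between row IDs and values. In the deposited table the IDs do not go with the values beside them. The IDs at the end of the table were given, in order, the values of as many rows at its start. Of these IDs, 2872 had 1 gene symbol, 397 several and 2293 none. With the displacement, 23 ribosomal protein rows, which code for the machinery of translation, had a median log2 value of 12.16. The 140 olfactory and vomeronasal receptor rows, sensory genes used here as a stand-in for background, had a median of 3.63. The displacement was first found from such families, so that gap is a description and no independent support. A slip of 1 row in either direction lowered the ribosomal median to 7.67 or 7.56 and left the receptor median at 3.61 or 3.68. With IDs as deposited, the medians were 5.94 and 5.09.

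The sex-linked genes gave a further look at the names, since the mice were male. Xist, which coats the silenced X chromosome of females, had a row mean of 4.61 after displacement and 9.35 as deposited. The Y-linked genes Kdm5d, Uty and Eif2s3y had 7.69, 7.95 and 8.85 after displacement, against 8.57, 3.83 and 2.94 as deposited. The fourth Y-linked gene with a row, Usp9y, had 4.02 after displacement, which 46 of the 140 receptor rows reached or exceeded. Fli1, an ETS transcription factor of blood and endothelium, had 11.25 after displacement. The sort genes Slamf1, Cd48, Kit and Ly6a lay outside the placed IDs, so the HSC label could not be checked on them here. The same holds for Jam2 itself, for F11r, the remaining JAM, and for Itgb1, the partner subunit of Itga9, none of which was analysed here.

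**Figure D1:**
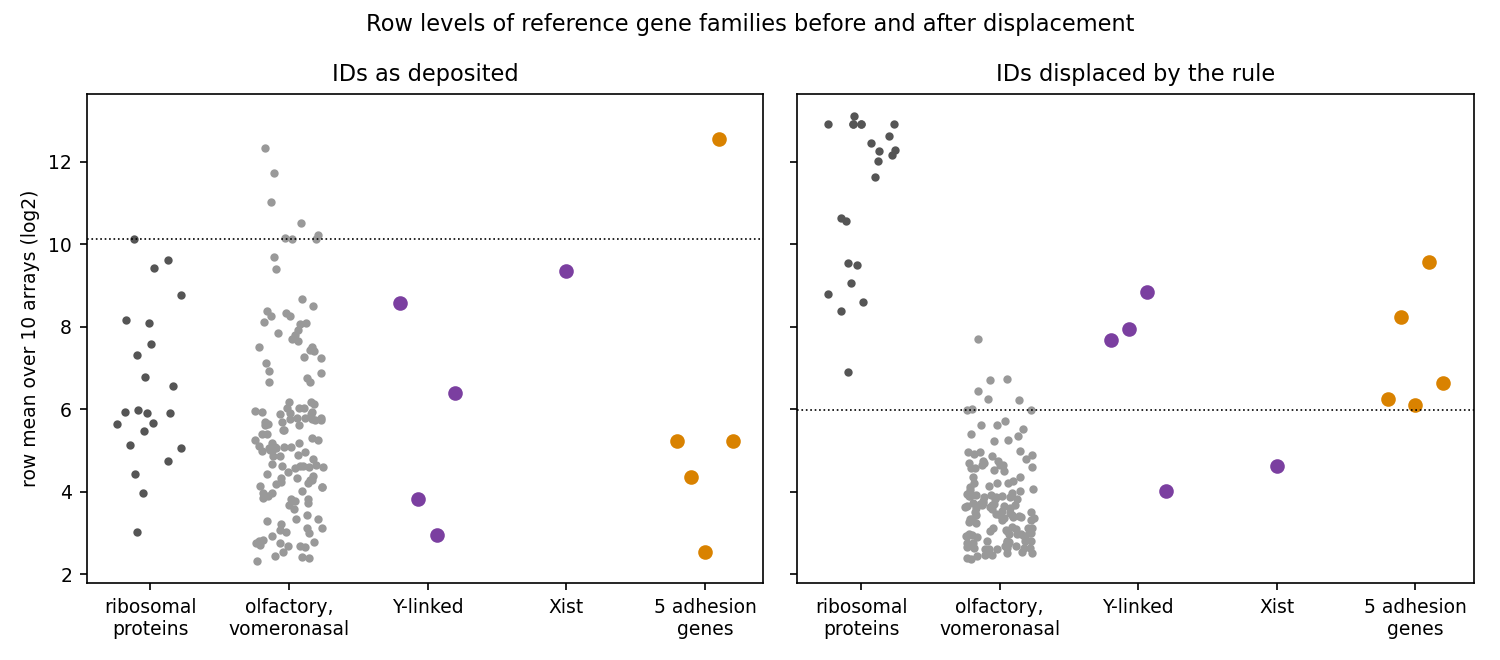
Row means over 10 arrays (log2, vertical axis) of ribosomal protein rows, receptor rows, 4 Y-linked genes, Xist and the 5 adhesion genes, with IDs as deposited (left) and displaced by the rule (right); each point is a row and the dotted line is the 95th percentile of receptor rows. After displacement ribosomal rows have a median of 12.16, receptor rows one of 3.63, and the 5 adhesion genes lie between 6.11 and 9.57.

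Each of the 5 genes had 1 ID with a single symbol, and all 5 lie on chromosome 9 in the RefSeq annotation of GRCm38.p6. Robo4 and Esam are close neighbours there, with Robo3 and Msantd2 between them. The levels of different rows are not compared with each other, because probes differ in brightness. Each row was set only against the receptor rows as a stand-in for background. The rows of Esam (ID 17516074) and Robo4 (ID 17516047) were brighter than all 140 receptor rows. Those of Itga9 (ID 17522916), Jam3 (ID 17525186) and Mcam (ID 17516518) were reached or exceeded by 3, 4 and 6 receptor rows. All 5 means were above 5.99, the 95th percentile of receptor rows, so the latter genes lay near the upper edge of the background range. Differences on such rows carry a share of background signal that was not measured.

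Jam2+ and Jam2- HSCs were compared to see how RNA differs with surface Jam2. None of the 5 genes passed the test: limma called 0 of 5 at an adjusted p under 0.05, where it called 0 of all 41345 rows (0.0%) in either direction. Among the 2721 placed genes it also called 0 (0.0%). The smallest adjusted p over all rows was 0.562, and 1688 rows (4.08%) had an unadjusted p under 0.05. The exact permutation test gave 1777 rows with an unadjusted p under 0.05. Its smallest p is 0.00794, so a call after adjustment over all rows would need 6563 rows at that p, and 309 had it; its 0 adjusted calls therefore carry no weight. In a bulk sample, fewer cells that express a gene and less of its RNA per cell cannot be told apart.

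Jam3, the partner of Jam2, was measured at 6.30, 6.09, 6.29, 5.97 and 5.96 on Jam2+ replicates 1, 2, 4, 5 and 6. On the Jam2- arrays of the same numbers it was 6.09, 6.41, 6.49, 6.44 and 6.43. The groups overlapped through a single array: Jam2- replicate 1 lay among the Jam2+ arrays, while the other 4 Jam2- arrays lay above all 5 Jam2+ arrays. Jam2+ arrays had a mean of 6.12 ± 0.17 (SD, n = 5) and Jam2- arrays one of 6.37 ± 0.16 (SD, n = 5), so that Jam2+ minus Jam2- was -0.25 ± 0.106 (SE). The 95% interval of the ratio Jam2+ over Jam2- ran from 0.716 to 0.989 before adjustment. Jam2+ replicates 5 and 6, at 5.97 and 5.96, lay just below 5.99, the 95th percentile of receptor rows. The limma adjusted p was 1.00, and the exact two-sided permutation p, unadjusted, was 0.0635. Without Jam2- replicate 1 the difference was -0.32 (limma adjusted p = 0.999).

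Esam, a relative of the JAMs in the same adhesion family, was measured at 8.40, 8.05, 8.22, 8.09 and 7.97 on the Jam2+ arrays in the same order. It was 8.36, 8.003, 8.32, 8.48 and 8.42 on the Jam2- arrays. Most Jam2- arrays were in the upper range, but Jam2- replicate 2 was nearly as low as the lowest Jam2+ array and the groups overlapped widely. Jam2+ minus Jam2- was -0.17 ± 0.112 (SE; limma adjusted p = 1.00, exact permutation p = 0.167). Its ratio of 0.888 had a 95% interval from 0.748 to 1.06, which holds both a fall to 0.748 of the Jam2- level and no change.

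Robo4, the roundabout receptor, was measured at 9.87, 9.33, 9.60, 9.67 and 9.56 in Jam2+ and at 9.68, 9.70, 9.29, 9.58 and 9.43 in Jam2- HSCs. The highest and the second lowest of the 10 values were both Jam2+ arrays, and the lowest was a Jam2- array. Jam2+ minus Jam2- was 0.07 ± 0.116 (SE; limma adjusted p = 1.00, exact permutation p = 0.571). The 95% interval of the Robo4 ratio ran from 0.878 to 1.25. The difference was 0.0015 without Jam2+ replicate 1 and 0.14 without Jam2+ replicate 2 (limma adjusted p = 1.00 for both), and it turned to -0.025 without both Jam2+ replicate 1 and Jam2- replicate 6 (limma adjusted p = 0.982). Robo3, the neighbouring roundabout gene of the nervous system, differed by -0.01 ± 0.291 (SE), so its estimate was far less precise.

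Mcam, the endothelial and perivascular adhesion protein, was measured at 6.20, 6.29, 6.17, 6.19 and 6.22 in Jam2+ HSCs. In Jam2- HSCs it was 6.17, 6.11, 5.93, 5.90 and 5.89. The Jam2+ arrays lay close together, and the groups overlapped only where the highest Jam2- array, replicate 1, passed the lowest Jam2+ array, replicate 4. The means were 6.21 ± 0.05 (SD, n = 5) and 6.00 ± 0.13 (SD, n = 5). The difference was 0.21 ± 0.078 (SE), a ratio of 1.16 with a 95% interval from 1.03 to 1.30. Jam2- replicates 4, 5 and 6 lay below 5.99, the 95th percentile of receptor rows. Part of the Jam2- group was therefore within the background range. The limma adjusted p was 1.00 and the exact permutation p, unadjusted, was 0.0159.

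Itga9, the alpha9 integrin subunit, was measured at 6.52, 6.22, 6.77, 6.57 and 6.81 in Jam2+ and at 6.67, 6.55, 6.61, 6.83 and 6.79 in Jam2- HSCs. Jam2+ replicate 2 was the lowest of the 10 arrays, and all other values of both groups fell in 1 common range. Jam2+ minus Jam2- was -0.11 ± 0.116 (SE; limma adjusted p = 1.00, exact permutation p = 0.389). Without Jam2+ replicate 2 it was -0.02 (limma adjusted p = 1.00).

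**Figure D2:**
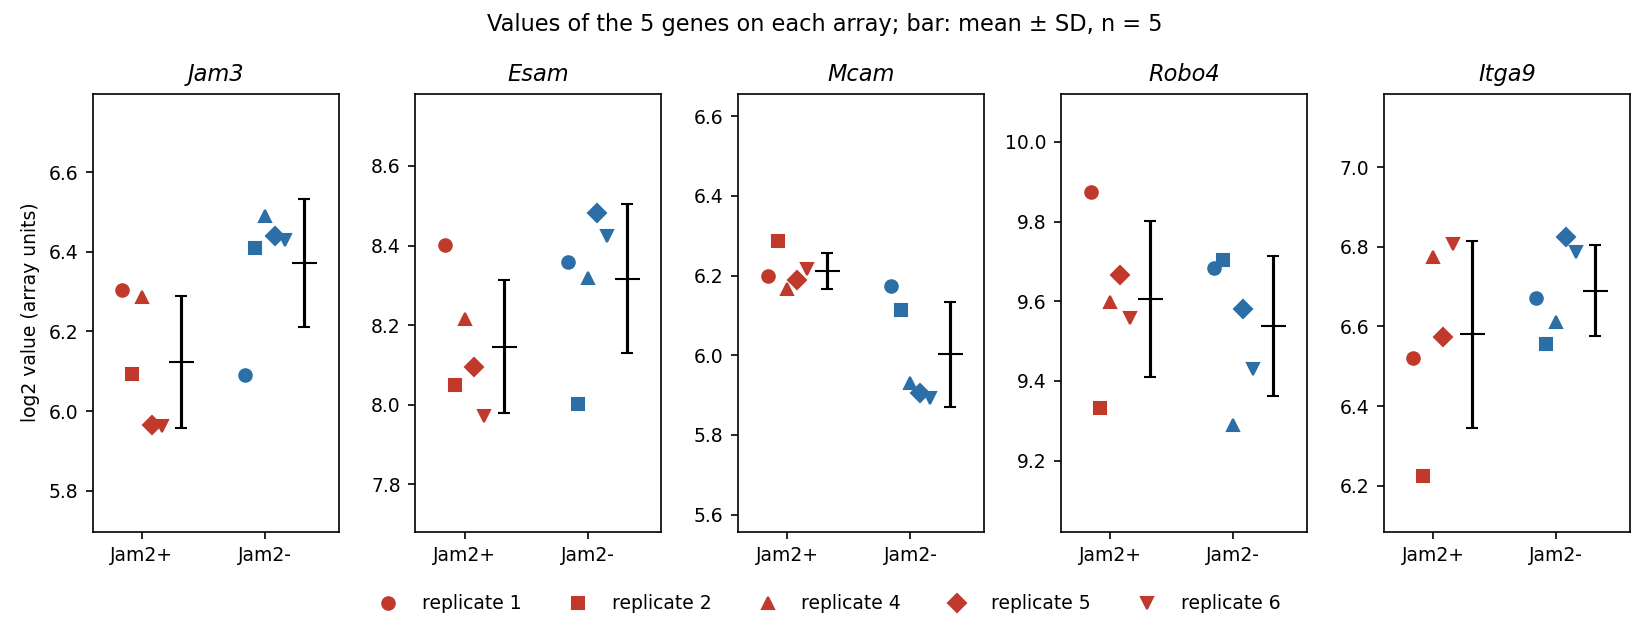
Log2 values (vertical axis, each panel spanning the same range around its gene's mean) of the 5 genes on 5 Jam2+ (red) and 5 Jam2- (blue) arrays; symbols give the replicate number, and the black bar is the mean ± SD. Jam2- replicate 1 is the only Jam2- array among the Jam2+ values of Jam3, and the groups overlap for all 5 genes.

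The differences of the 5 genes ran from -0.25 to 0.21, with 2 above and 3 below 0 and a median of -0.11, against a median of 0.01 over the 2721 placed genes. Unadjusted, 2 of 5 had a limma p under 0.05, Mcam higher and Jam3 lower, where 4.23% of the placed genes did, 2.35% higher and 1.87% lower. The genes were chosen with earlier results of these data known, so that count is a description. None of the 5 had groups without overlap, a pattern that 0.992% of the placed genes showed.

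The 2 genes at the ends of the p-value order are shown by their promoters, because Fli1 and Ets1, ETS factors known to act on endothelial and blood promoters, were measured on the same arrays. The sequences are the 250 bases before the transcription start, from RefSeq with build GRCm38.p6. The promoter sequences used held no entry for Jam3 or Esam. The Itga9 window, which had no ETS match, is not shown. Robo4, with the largest p, is at chr9:37401722-37401971 and Mcam, with the smallest, at chr9:44134408-44134657, both on the plus strand. Capitals mark matches to the ETS motifs CCGGAA or AGGAAG on either strand.
Robo4: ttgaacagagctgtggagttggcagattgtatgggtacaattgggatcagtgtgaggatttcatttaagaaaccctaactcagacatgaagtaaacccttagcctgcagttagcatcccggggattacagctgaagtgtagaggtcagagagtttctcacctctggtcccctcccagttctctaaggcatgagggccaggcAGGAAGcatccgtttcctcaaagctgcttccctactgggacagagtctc
Mcam: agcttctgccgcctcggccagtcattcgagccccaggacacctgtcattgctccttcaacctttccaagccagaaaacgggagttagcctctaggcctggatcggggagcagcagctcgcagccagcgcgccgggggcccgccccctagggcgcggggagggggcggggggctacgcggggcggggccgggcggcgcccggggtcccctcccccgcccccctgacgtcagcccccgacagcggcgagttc
Robo4 had 1 match, AGGAAG on the plus strand starting at position -49 from the transcription start, and Mcam had none. One of the motifs or both occurred in 38.2% of the 32851 promoter windows in the table, so a match is common. Robo4 also held the E-box CAGCTG at position -123, found in 13.0% of windows. Neither window held AGATAA, a motif of GATA factors found in 9.99% of windows. Neither held TGTGGT, a motif of RUNX factors found in 14.0% of windows. The Mcam window held 25 CpG sites and the Robo4 window 2, where the median window held 6. Fli1 was at 11.18 ± 0.16 (SD, n = 5) on Jam2+ arrays and at 11.31 ± 0.13 (SD, n = 5) on Jam2- arrays and differed by -0.13 (limma adjusted p = 1.00). Ets1 differed by 0.09 (limma adjusted p = 1.00). Tgfbr2, a receptor for the quiescence factor TGF-beta and the third of 36 listed HSC identity genes with a placed row, differed by -0.03 (limma adjusted p = 1.00).

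Other adhesion genes were read from fixed lists, and limma called 0 genes in any of them. Of 11 junctional immunoglobulin-family genes, 5 had a placed row, and 4 of these were below 0, with a median difference of -0.05. Beside Jam3 and Esam these were Clmp, an adhesion protein related to Cxadr, at -0.0029, Vsig1 at -0.05 and Vsig2, the neighbour of Esam, at 0.08; the Vsig1 row was below the 95th percentile of receptor rows. Of 31 further immunoglobulin-superfamily adhesion genes, 13 had a row, 9 above and 4 below 0, with a median of 0.05. After Mcam the smallest p-values there belonged to Icam4, an erythroid ligand of integrins, at -0.21, Hepacam, a glial adhesion gene, at 0.18 and L1cam, a neural adhesion protein, at 0.22. Of the 13 rows, 6 were below the 95th percentile of receptor rows, that of Hepacam among them. Icam1, the ligand of leukocyte integrins, differed by 0.02 and Thy1, a surface marker graded among blood progenitors, by 0.14.

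Of 26 integrin subunits, 2 had a row: Itga9 and Itga11, a collagen-binding subunit, at 0.10. Of 30 integrin adaptors and activators, 4 had a row, with a median of -0.11. Rap1b, a small GTPase that switches integrins on, had the largest difference in these adhesion and junction lists, at 7.61 ± 0.33 (SD, n = 5) on Jam2+ arrays and 8.05 ± 0.15 (SD, n = 5) on Jam2- arrays. Its difference of -0.44 did not pass (limma adjusted p = 1.00, exact permutation p = 0.0317), and its RefSeq gene lies on chromosome 10, outside the chromosomes of most placed IDs. Whether its row measures this gene or a copy is uncertain. The other adaptors differed by -0.13 (Itgb1bp2), -0.10 (Bcar1) and 0.07 (Tln2, on a row below the 95th percentile of receptor rows). Of 28 junction scaffold and polarity genes, 6 had a row, 3 above and 3 below 0. Ctnnb1, which links cadherins to actin, differed by -0.11, Cask, a scaffold at membranes, by 0.16, Cgnl1 by -0.06 and Rdx, a membrane linker of actin, by -0.04. In the Robo and Slit list Gpc1, a heparan sulphate carrier, differed by -0.09. Its RefSeq gene lies on chromosome 1, so what its row measures is as uncertain as for Rap1b. Of 62 placed genes over all lists, marker lists included, 7 lie off chromosomes 9, X and Y in RefSeq. Bcar1, on chromosome 8, is among them. The only placed ligand of integrin alpha9, Vegfd, differed by -0.01 on a row below the 95th percentile of receptor rows.

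**Figure D3:**
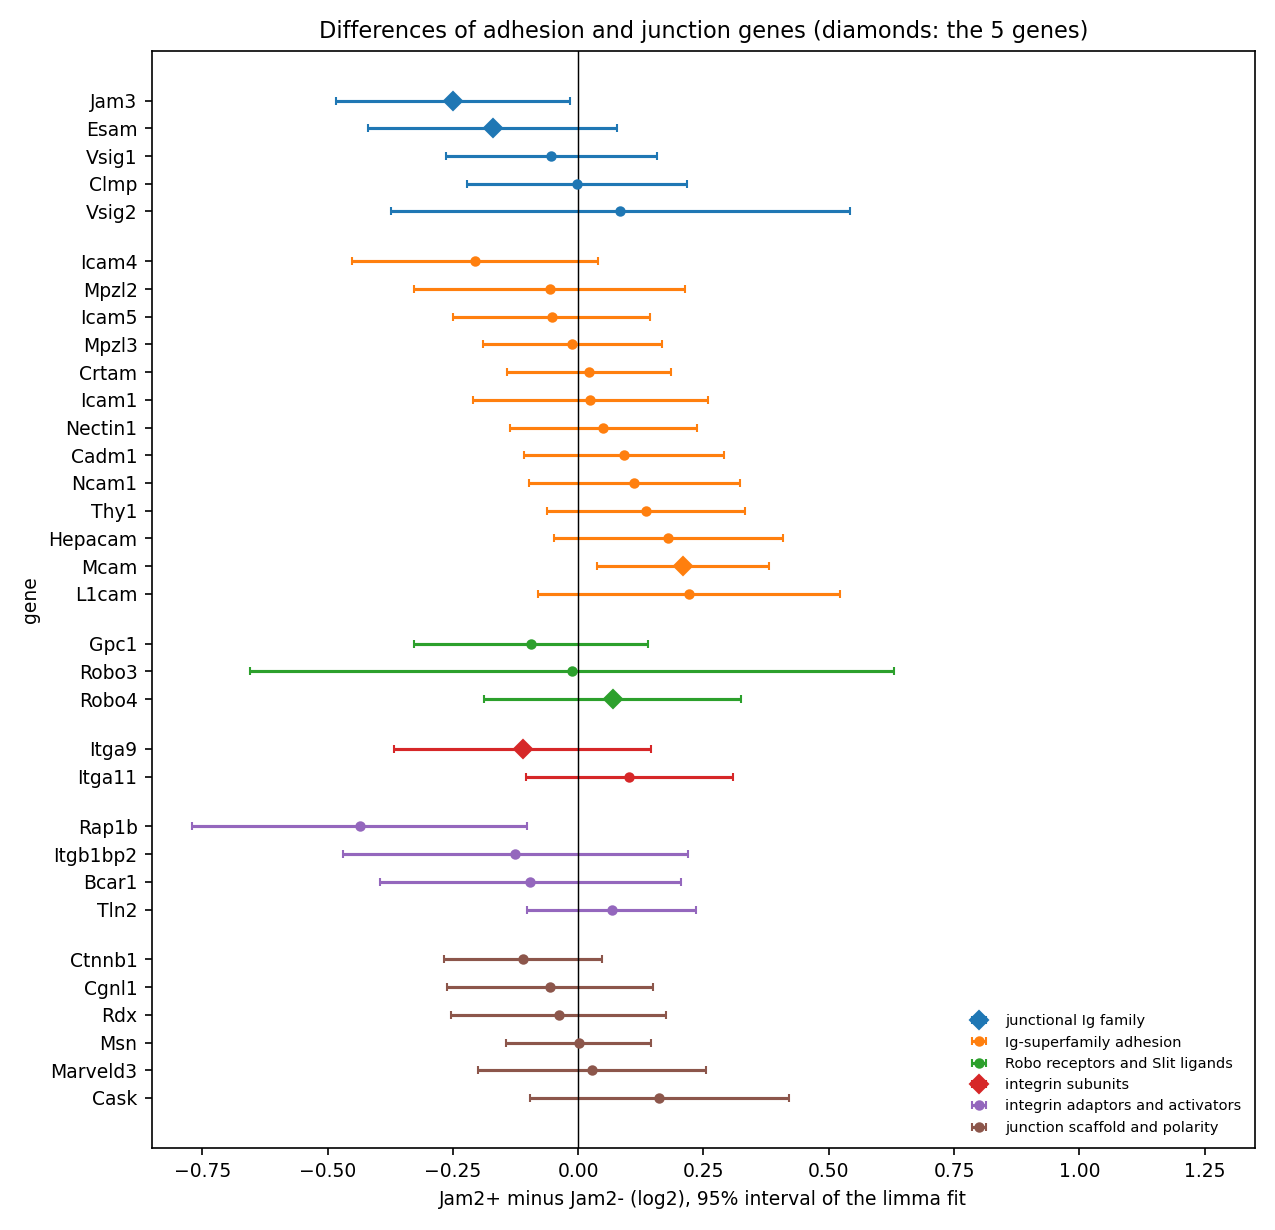
Difference Jam2+ minus Jam2- (log2, horizontal axis) with the 95% interval of the limma fit before adjustment, for the genes of 6 adhesion and junction lists with a placed row; diamonds are the 5 genes and colours are the lists. Intervals of Jam3, Mcam and Rap1b lie to 1 side of 0, and no gene passed after adjustment.

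Markers of other cells were read on the same arrays. Of 17 neutrophil genes, 5 had a placed row, all 5 had differences below 0, and 0 of 5 passed. The log2 of their summed level was 7.51 to 7.58 in Jam2+ and 7.65 to 9.89 in Jam2- HSCs. Unadjusted, 3 of the 5 had a limma p under 0.05, all lower, where 1.87% of the placed genes did. The granule protein genes Camp, Ngp and Ltf had differences of -1.72, -1.56 and -0.77 (limma adjusted p = 1.00 for each), and the groups did not overlap for Camp. In Jam2- HSCs their means were 6.22, 7.31 and 6.02, above the 95th percentile of receptor rows. In Jam2+ HSCs they were 4.50, 5.76 and 5.25, below it, so the differences are set against a group within the background range. Cybb and Mmp8 were below that percentile in both groups. The highest sums were those of Jam2- replicates 2 and 5. Without both arrays the difference was -0.22 for Jam3, -0.22 for Esam, 0.21 for Mcam, 0.14 for Robo4 and -0.11 for Itga9 (limma adjusted p = 1.00 for each). Jam2- replicate 6, with a neutrophil sum of 7.65, had Jam3 at 6.43, among the high Jam2- arrays. Its Mcam value of 5.89 was the lowest of all arrays. Jam2- replicate 1, with the next lowest sum in that group, went the other way. It had Jam3 at 6.09, the lowest Jam2- value, and Mcam at 6.17, the highest Jam2- value. Whether neutrophil RNA has a part in the differences of Jam3 and Mcam was not tested.

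Of 27 endothelial markers, 2 had a placed row, of which Bmx, a kinase, was below the 95th percentile of receptor rows and Apln, a peptide ligand, above it. Their sum was 6.16 to 7.02 in Jam2+ and 6.48 to 7.07 in Jam2- HSCs, and the defining endothelial genes lay outside the placed IDs. The part of endothelial RNA in the values of Esam, Robo4 and Mcam was not tested. Stroma and pericyte markers, with 4 of 19 placed, summed to 10.12 to 10.51 in Jam2+ and 9.85 to 10.30 in Jam2- HSCs. That sum was mostly the row of Bgn, with a mean of 10.05 in Jam2+ and 9.86 in Jam2- HSCs. Only 2 of the 4 rows were above the 95th percentile of receptor rows. The RefSeq gene of Col1a2, from this list, lies on chromosome 6, so what its row measures is as uncertain as for Rap1b. Megakaryocyte (2 of 20 placed), erythroid (2 of 16), T cell (6 of 20), B cell (3 of 16) and macrophage and dendritic lists (3 of 17) overlapped between the groups, and 0 of their genes passed. Of the T cell rows only 1, that of Thy1, was above the 95th percentile of receptor rows. Of the macrophage and dendritic rows only 1 was, so the overlap of these lists says little about such cells. Irf8, from the macrophage and dendritic list, lies on chromosome 8 in RefSeq, and what its row measures is equally uncertain.

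**Figure D4:**
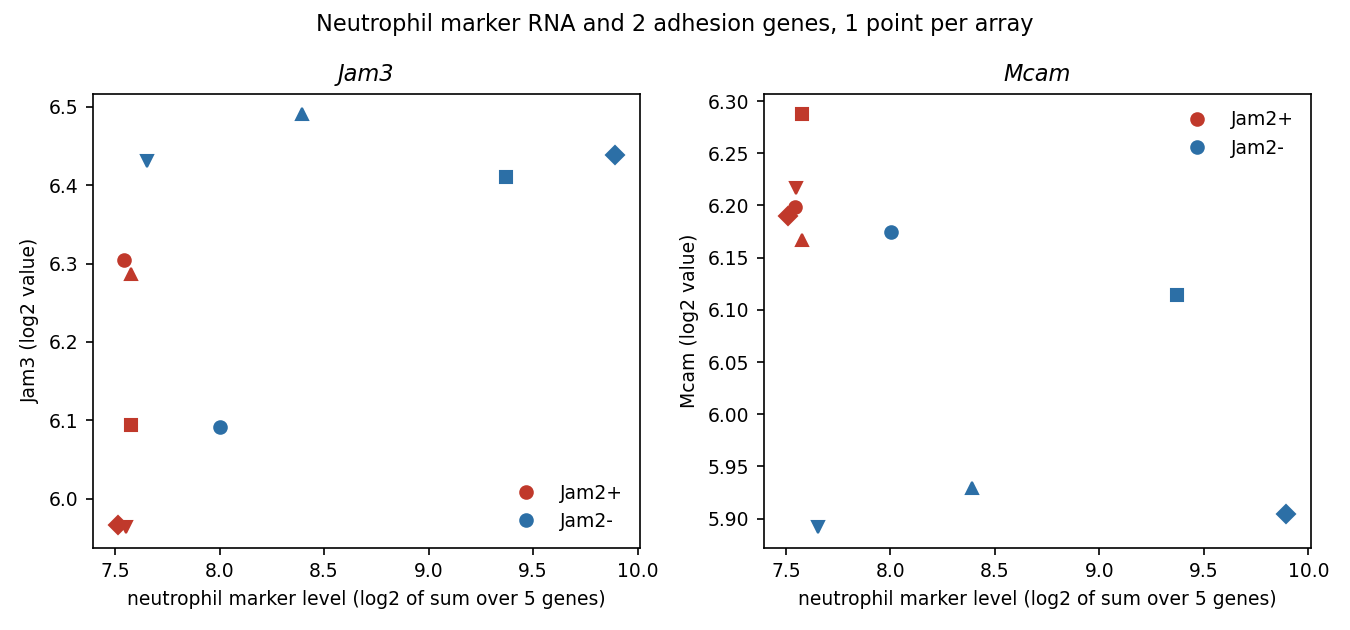
Log2 value of Jam3 (left) and Mcam (right) on the vertical axis against the log2 summed level of 5 neutrophil genes on the horizontal axis, 1 point per array; red is Jam2+, blue Jam2-, symbols as in the plot of values by array. Jam2+ arrays span 7.51 to 7.58 on the horizontal axis and Jam2- arrays 7.65 to 9.89.

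With group means removed, Pearson's r between pairs of them over the 10 arrays ran from -0.58 (Jam3 and Mcam) to 0.39 (Jam3 and Esam), and the neighbours Esam and Robo4 had 0.18. These are descriptions over arrays that may share mice. Among 1464 placed genes above the 95th percentile of receptor rows, Fdx1 was most like Jam3 (r = 0.85), Tbrg1 most like Esam (r = 0.91) and Yap1 most like Mcam (r = 0.90). Mthfsd was most like Robo4 (r = 0.88) and Tspan3, a tetraspanin, most like Itga9 (r = 0.96). Next came Nxpe2 (r = 0.84) and Snx12 (r = 0.81) for Jam3, ND3 (r = 0.86) and Coro2b (r = 0.85) for Esam, and LOC100040974 (r = 0.89) and Lonrf3 (r = 0.86) for Mcam. For Robo4 they were Clcn5 and Ift46 (r = 0.86 for both), and for Itga9 Exoc8 and Snrk (r = 0.91 for both). These are the highest of many values over 10 arrays.

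Jam2+ replicate 1 and Jam2- replicate 6 resembled the other arrays least, with a mean r across rows of 0.970 and 0.968 against 0.976 to 0.980 for the remaining 8. Without both, the differences were -0.28 for Jam3, -0.21 for Esam, 0.18 for Mcam, -0.025 for Robo4 and -0.07 for Itga9, and limma called 0 of 5 (lowest adjusted p = 0.865).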

How the data were processed

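RNA from 10 sorted HSC samples was measured on single-colour arrays, 5 per group. The deposited table holds log2 values, made by the authors with the R package oligo per the submitters' processing notes; its version, the background correction, the normalization and the genome build were not given in sources used here. Array medians were 5.96 to 6.05. IDs were named from the platform annotation; 2815 of 2872 single-symbol IDs matched RefSeq (GRCm38.p6) by Entrez identifier. The IDs at the end of the table were placed in order on its first rows, and the brightest row stood for each gene.

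All 41345 rows were fitted with limma (lmFit, eBayes; group only), with Benjamini-Hochberg adjustment at 0.05, beside exact two-sided permutation over 252 assignments. Members and lists were chosen with earlier results of these data known. Named genes were the members, sex-linked checks, Jam2, F11r and Itgb1 where placed, the 4 list genes with the smallest p, and the genes most like each member. A few further list genes, markers and sort genes were named after values were seen. The fit was checked on simulated data. Same-numbered arrays' deviations correlated at -0.02 to 0.11, so numbers were not taken to pair arrays. Such weak correlation does not show that the arrays were unpaired, and the permutation test made no use of pairs. The number of arrays limits the precision. Fits ran in limma 3.58.1 under R 4.3.3; tables and plots came from pandas 2.3.3, matplotlib 3.10.9, scipy 1.17.1 and numpy 2.4.6 under Python 3.11.15.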

Additional observations from a re-analysis of the deposited data

Results flagged for a closer look

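Of 26 groups of 5 arrays examined for an outlying value, covering the 5 genes and 8 marker lists, 2 held one, where chance gives about 1.3. For Jam3, Jam2- replicate 1 had 6.09, and the next Jam2- array had 6.41. For the stroma and pericyte markers, the log2 summed level of Jam2+ replicate 1 reached 10.51, and the next Jam2+ array had 10.22. That sum rests mostly on the row of Bgn, so it does not speak for the list as a whole.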

How the results depend on the processing

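Limma called 0 rows higher and 0 lower in Jam2+ HSCs under the alternatives run, except that 0 to 1 rows were higher when single arrays were dropped in turn. The 1 appeared without Jam2+ replicate 6 (deposited ID 17516243, adjusted p = 0.0454) and lies outside the rows used here. With the replicate number as a replicate block, 0 rows were called (limma adjusted p = 0.997 for each of the 5 genes). The 5 differences were the same, which the balanced design fixes in advance. Over 26 alternatives Jam3, Esam, Mcam and Itga9 kept their direction and did not pass. Many of these cannot change a difference, such as the replicate block, removal of dim rows, the permutation test and a looser threshold. Their number is therefore no measure of how stable the directions were. Robo4 reversed to -0.025 without both Jam2+ replicate 1 and Jam2- replicate 6; the cause was not tested. With 1 array left out the differences ran from -0.32 to -0.21 (Jam3), -0.25 to -0.13 (Esam), 0.18 to 0.25 (Mcam), 0.0015 to 0.14 (Robo4) and -0.17 to -0.02 (Itga9). Leaving out Jam2- replicates 2 and 5 was chosen after the data were seen. Each gene had 1 row, so averaging rows changed nothing. The rows of Jam3, Mcam and Itga9 lay near the upper edge of receptor rows, which limits what their differences can show.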
